A study of Mus musculus with 2 samples.

Results

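The 7 sirtuins (Sirt1 to Sirt7), the NAD salvage enzyme Nampt and the nicotinamide-methylating enzyme Nnmt were examined during differentiation of brown preadipocytes. These 9 genes were taken by symbol from an RNA-Seq table that held values for 23361 genes, and all 9 had a value above 0 in both libraries. Brown preadipocytes were isolated from interscapular brown adipose tissue of newborn C57BL/6 mice and grown in 20% serum. The D0 library was made from preadipocytes and the D7 library from differentiated adipocytes, with 1 library per stage. Per the labels, cells were plated 4 days ahead of day 0 in a medium that held 10% serum, insulin (0.1 μM) and T3 (1 nM). From day 0 the medium also held indomethacin (0.125 mM), dexamethasone (2 μg/ml) and IBMX (0.5 mM) for 2 days, after which the cells of the D7 library were kept with insulin and T3 only. The study's methods give other concentrations of insulin and dexamethasone, and 10% serum for the cultured preadipocytes where the labels give 20%. They also describe cells immortalized with large T, whereas the labels and the study's results call them primary cultures. The methods report the use of 4 mice at 1 day of age, of either sex. Neither the methods nor the labels state whether cells of several animals were pooled.

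Sirtuins remove acetyl or longer acyl groups from proteins and consume NAD in each reaction, releasing nicotinamide. Nampt returns nicotinamide to the NAD pool as the rate-limiting enzyme of salvage, whereas Nnmt methylates nicotinamide with S-adenosylmethionine and so removes it from salvage. SIRT3, SIRT4 and SIRT5 reside in mitochondria, SIRT1, SIRT6 and SIRT7 mainly in the nucleus, and SIRT2 mainly in the cytosol. In brown fat, SIRT1 and SIRT3 are known for their links to PGC-1α and to fatty acid oxidation.

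Levels are in FPKM, fragments scaled by transcript length and by the size of the library, as deposited by the authors. Owing to the scaling by length, levels of different genes in a library can be set side by side. The fragments behind a value were recovered from the steps between low values, which gave 21413912 fragments at D0 and 18238703 at D7. All intervals are exact 95% intervals on these fragments, cover counting error only and compare 2 libraries. With no replicate, no difference had a check against the spread between cultures and no p-value is given. In bulk RNA, fewer cells of a type and less RNA per cell cannot be told apart. Adipocyte markers went with the D7 label: all 8 listed markers were higher at D7, and their summed level was 46.5 FPKM at D0 and 17829 at D7. Of 9 brown adipocyte markers, 4 were listed at 0 at D0 and none at D7. Of the other 5, 4 were at least 2.0-fold higher, among them Pparg, which is also 1 of the 8 adipocyte markers. The fifth, Prdm16, was not called, with a ratio of 1.22 (95% interval 0.964 to 1.53). Markers of fibroblasts or preadipocytes were mixed: of 8, 3 were at least 2.0-fold lower at D7, 2 were higher and 3 lay between. Of 6 proliferation genes, 5 were at least 2.0-fold lower at D7. Markers of macrophages also moved with the stage. Of 11 macrophage genes, 10 were at least 2.0-fold higher at D7, none was listed at 0 in either library, and their summed level was 146 FPKM at D0 and 516 at D7. Macrophages also transcribe Nampt and several other genes described here, and their part in the values was not tested. Of 6 erythroid markers, 5 were listed at 0 in both libraries, and the 6 endothelial markers summed to 1.62 FPKM at D0 and 2.69 at D7. The 7 skeletal muscle markers summed to 51.7 FPKM at D0 and 4.89 at D7. Most of the D0 sum was Acta1, with 45.4 FPKM at D0 and 1.73 at D7.

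Of the 9 genes, 3 were at least 2.0-fold higher at D7 in FPKM as deposited (Nampt, Sirt3 and Sirt5), none was lower, and 6 lay between a ratio of 0.5 and 2.0. Over all 14986 genes above 0 in both libraries, 18.5% were higher and 13.2% were lower by this rule, 31.7% in all. The balance depends on the setting. With values under 0.01 set to 0.01 and each library divided by its own median, 2836 genes were higher and 3832 lower. That setting counted 16671 genes, including those at 0 in 1 library, and 2 of the 9 genes were higher, Nampt and Sirt3. With FPKM as deposited the counts were 2767 and 1980. With the ratios of the 14986 genes centred on their median, the counts were 2735 and 2030. Among the 10773 genes with an FPKM of at least 1 in both libraries, as these 9 genes have, 11.8% were higher and 9.86% were lower, 21.6% in all. The median log2 ratio of D7 to D0 was 0.77 over the 9 genes and 0.02 over all genes. The counting interval of the ratio lay above 1 in 6 of the 9 genes and included 1 in 3, whereas it lay above 1 in 34.2% and below 1 in 35.5% of 14823 genes with a known length. A counting interval that excludes 1 was thus common at this depth, at 69.7% of genes.

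**Figure D1:**
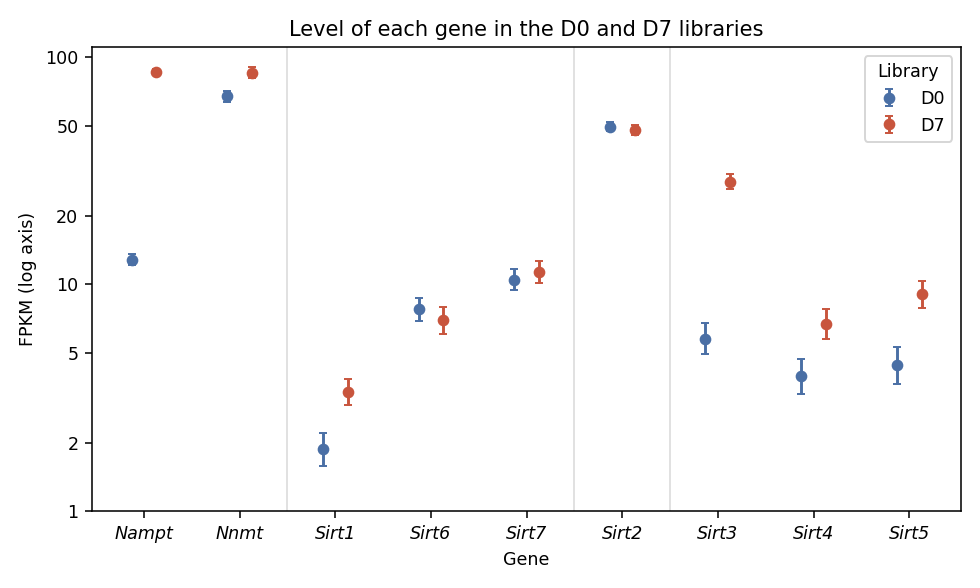
FPKM (log axis) of each gene at D0 and at D7, with exact 95% counting intervals as bars; vertical lines separate the enzymes of nicotinamide, the nuclear, the cytosolic and the mitochondrial sirtuins. Nampt and Sirt3 show the widest gaps between the libraries, whereas the points of Sirt2, Sirt6 and Sirt7 lie close together.

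Nampt (ENSMUSG00000020572.8, mm10 chromosome 12, 32819545 to 32853349, plus strand) had the highest ratio of the 9 genes. Its level was 12.8 FPKM at D0 (95% interval 12.1 to 13.6) and 86.6 FPKM at D7 (84.6 to 88.7), from about 1196 and 6865 fragments. The D7 level was 6.75 times the D0 level (6.34 to 7.17), and only 4.54% of all genes above 0 in both libraries had a higher ratio. In rank, Nampt was the 5152nd most abundant gene at D0 and the 1012th at D7. A long noncoding gene, Gdap10, lies within Nampt on the same strand and shares its deposited locus, so reads of the pair may have been divided between them. Gdap10 stood at 0.463 FPKM at D0 and 3.38 at D7, so that the ratio was 7.29 at a small share of the Nampt level. The genes nearest to Nampt in log2(FPKM + 0.1) over the 2 libraries were Ogn, Ctla2a and Rnf146, at distances of 0.08, 0.15 and 0.17. With 2 libraries this likeness rests on a level and a single ratio, and it is given as a description.

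The promoter windows of RefSeq (GRCm38.p6) held 8 of the 9 genes, with Nnmt not among them. The 250 bases before the start were searched on both strands for CACGTG, the E-box bound by CLOCK and BMAL1, and for TGACGT, the core of the cAMP response element. Windows are shown here for the gene with the highest ratio and for the only member with a match, with matches in capitals and the coding strand written 5′ to 3′. Both RefSeq starts lie inside the wider GENCODE gene given here. The Nampt window is chr12:32820085-32820334 on the plus strand and the Sirt1 window is chr10:63339036-63339285 on the minus strand.
Nampt: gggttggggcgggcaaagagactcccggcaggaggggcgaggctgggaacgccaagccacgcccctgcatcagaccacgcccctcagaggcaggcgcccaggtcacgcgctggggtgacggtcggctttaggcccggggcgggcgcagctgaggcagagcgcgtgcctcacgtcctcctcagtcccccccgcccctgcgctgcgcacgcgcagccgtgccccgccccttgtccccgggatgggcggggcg
Sirt1: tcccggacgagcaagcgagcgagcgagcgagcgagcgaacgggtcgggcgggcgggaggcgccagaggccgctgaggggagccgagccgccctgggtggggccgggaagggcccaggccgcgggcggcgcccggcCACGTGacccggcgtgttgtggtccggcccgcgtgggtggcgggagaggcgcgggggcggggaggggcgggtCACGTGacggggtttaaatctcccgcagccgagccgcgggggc
The Sirt1 window held 2 E-boxes, at 38 to 43 and at 110 to 115 bases before the start, and no match to TGACGT. The Nampt window held neither motif, and neither did the windows of the other 6 sirtuins. Of all 32851 windows of this length, 6.02% held an E-box and 6.47% held TGACGT. Both windows shown are rich in CG: that of Nampt had 27 CG dinucleotides and that of Sirt1 had 39, against a median of 6 over all windows. A match is a description of letters and not a bound site.

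Nnmt (ENSMUSG00000032271.13, chromosome 9, 48591877 to 48605153, minus strand) was the most abundant of the 9 genes at D0. Its level was 67.6 FPKM at D0 (63.9 to 71.4) and 85.7 at D7 (81.3 to 90.5). The ratio of 1.27 (1.17 to 1.37) did not reach 2.0. Under the alternatives planned beforehand it ran from 1.24 (TPM) to 1.30 (trimmed mean ratio), with 1.26 after median centring. Only division of each library by its own median, a setting added after the data were seen, put it below 1, at 0.994. The direction of Nnmt thus held under the planned scalings but not under that added one. Relative to Nnmt, the level of Nampt therefore moved from 0.190 at D0 to 1.01 at D7, a comparison within each library that no scaling changes. At D7 the intervals of Nampt and Nnmt overlapped, whereas at D0 they lay far apart.

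Among the mitochondrial sirtuins, Sirt3 (ENSMUSG00000025486.17, chromosome 7, 140863666 to 140882309, minus strand) stood out. SIRT3 is the main protein deacetylase of the mitochondrial matrix. Its level was 5.77 FPKM at D0 (4.92 to 6.75) and 28.4 FPKM at D7 (26.3 to 30.6), from about 159 and 663 fragments. The ratio was 4.92 (4.11 to 5.86), and 6.30% of all genes had a higher one. Sirt3 overlaps Ric8a and Psmd13 on the opposite strand, and the table places Sirt3 and Ric8 (its name for Ric8a) in the same locus. In library preparation the second cDNA strand was degraded with UNG, while the use of strand in counting is not given in the sources used here. Ric8 had 24.1 FPKM at D0 and 17.5 at D7, so that its ratio was 0.725, and Psmd13 had a ratio of 0.944. Sirt3 was thus below Ric8 at D0 and above it at D7.

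Sirt5 (ENSMUSG00000054021.6, chromosome 13, 43365496 to 43395203, plus strand) encodes the mitochondrial enzyme that removes succinyl, malonyl and glutaryl groups. It had 4.41 FPKM at D0 (3.63 to 5.28) and 9.05 FPKM at D7 (7.84 to 10.4). Its ratio of 2.05 (1.62 to 2.60) lies barely past 2.0. It was 1.86 after 1 was added to each FPKM and 1.61 after division by the library median, so the 2.0-fold call of Sirt5 depends on these settings, while its direction held under all of them. The deposited locus of Sirt5 starts at 43370716, downstream of the first annotated start, so transcripts from that start may be counted in part. Sirt4 (ENSMUSG00000029524.16, chromosome 5, 115478010 to 115484725, minus strand), known as a brake on glutamate dehydrogenase, had 3.94 FPKM at D0 (3.28 to 4.70) and 6.71 at D7 (5.75 to 7.76). Sirt4 thus stayed under 2.0, with a ratio of 1.70 (1.34 to 2.15). All 3 mitochondrial sirtuins were therefore higher at D7 beyond counting error, Sirt3 by far the most. Their summed level was 14.1 FPKM at D0 and 44.1 at D7, or 3.13 times as high.

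These 3 ratios were set beside other nuclear-encoded mitochondrial genes, chosen by symbol after the values were seen. The 36 subunits of complex I with Nduf symbols had a median ratio of 2.41 and ranged from 1.23 to 5.56, and 1 of them had a higher ratio than Sirt3. The 73 mitochondrial ribosomal proteins had a median ratio of 1.53 and none exceeded Sirt3. Sirt5 was exceeded by 22 of the complex I subunits and Sirt4 by 29. Of the 73 mitochondrial ribosomal proteins, 11 exceeded Sirt5 and 23 exceeded Sirt4, and both ratios lay above the median of that list.

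Among the nuclear sirtuins, Sirt1 (ENSMUSG00000020063.16, chromosome 10, 63319005 to 63381704, minus strand), a deacetylase of transcription factors and coactivators, was the least abundant of the 9 genes in both libraries. It had 1.88 FPKM at D0 (1.59 to 2.20) and 3.35 FPKM at D7 (2.93 to 3.82), from about 150 and 228 fragments. The ratio of 1.78 (1.45 to 2.21) did not reach 2.0. An antisense gene, Gm16145, overlaps Sirt1 and was not analysed here. Sirt6 (ENSMUSG00000034748.16, chromosome 10, 81621785 to 81627797, minus strand), a chromatin enzyme of DNA repair and glycolytic gene control, had 7.76 FPKM at D0 (6.89 to 8.72) and 6.96 at D7 (6.06 to 7.94). Sirt7 (ENSMUSG00000025138.14, chromosome 11, 120618372 to 120625240, minus strand), which acts on ribosomal RNA transcription, had 10.5 FPKM at D0 (9.41 to 11.6) and 11.4 at D7 (10.2 to 12.7). The ratios of 0.897 for Sirt6 (0.746 to 1.07) and 1.09 for Sirt7 (0.928 to 1.26) could not be separated from 1 at this depth. Division by the library median turned Sirt7 to 0.851. Sirt7 overlaps Mafg on the same strand, which had a ratio of 0.983.

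The cytosolic tubulin and histone deacetylase Sirt2 (ENSMUSG00000015149.14, chromosome 7, 28766735 to 28788661, plus strand) was the most abundant sirtuin in both libraries. It had 49.5 FPKM at D0 (47.3 to 51.9) and 48.1 FPKM at D7 (45.6 to 50.6). The ratio was 0.970 (0.902 to 1.04), on about 1769 and 1458 fragments. After division by the library median it was 0.760. Sirt2 overlaps Nfkbib on the opposite strand, which had 8.68 FPKM at D0 and 10.0 at D7.

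**Figure D2:**
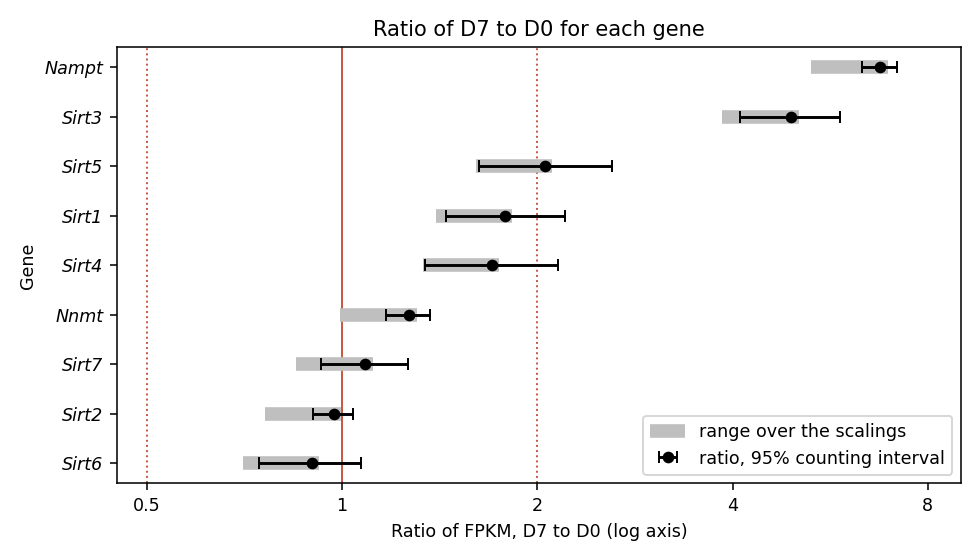
Ratio of FPKM at D7 to D0 (log axis) for each gene, with the exact 95% counting interval as a black bar and the range over the scalings tried as a grey band; the solid line marks a ratio of 1 and dotted lines mark 0.5 and 2.0. Nampt and Sirt3 lie above 2.0 with interval and band, the band of Sirt5 crosses 2.0, and the bands of Sirt7 and Nnmt cross 1.

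The order of the sirtuins by level was the same at its ends and differed in the middle. At D0 it ran from Sirt2 through Sirt7, Sirt6, Sirt3, Sirt5 and Sirt4 to Sirt1, and the intervals of Sirt3 and Sirt5 overlapped, as did those of Sirt5 and Sirt4. At D7 it ran from Sirt2 through Sirt3, Sirt7, Sirt5, Sirt6 and Sirt4 to Sirt1. There the intervals of Sirt7, Sirt5 and Sirt6 each overlapped with the next in the order, whereas that of Sirt4 did not overlap with Sirt1. Sirt3 passed from the fourth place to the second. The 7 sirtuins summed to 83.8 FPKM at D0 and 114 FPKM at D7. Sirt2 made up 59.1% of this sum at D0 and 42.2% at D7, while Sirt3 made up 6.88% and 24.9%. The mitochondrial sirtuins together made up 16.8% at D0 and 38.7% at D7, and the nuclear sirtuins 24.0% and 19.1%.

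**Figure D3:**
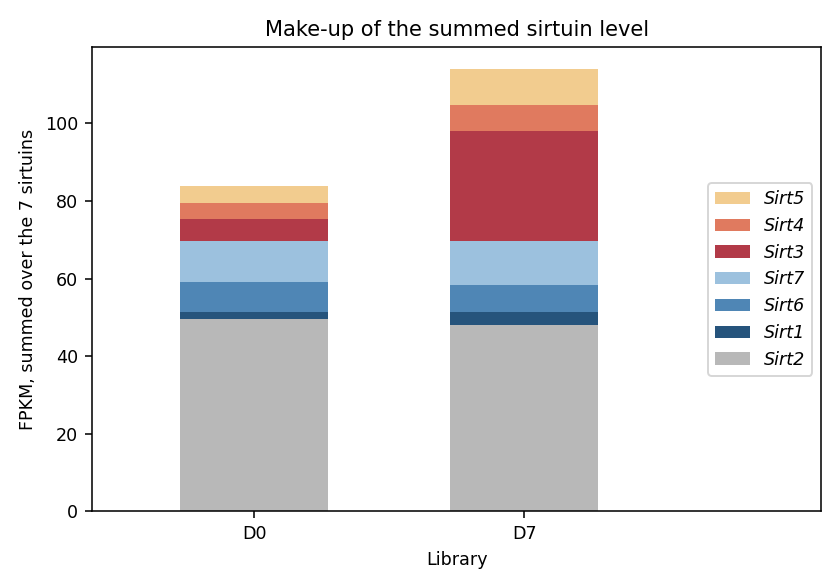
FPKM of the 7 sirtuins stacked to their sum in each library, with Sirt2 in grey, the nuclear sirtuins in blue and the mitochondrial sirtuins in red to yellow. The sum is 83.8 FPKM at D0 and 114 FPKM at D7, and the Sirt3 segment widens from 5.77 to 28.4 FPKM.

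Other genes of NAD metabolism were counted over lists of synthesis, transport, consumption and nicotinamide methylation with its methyl donor cycle. Of 53 such genes, 45 were above 0 in both libraries, of which 7 were at least 2.0-fold higher at D7 and 8 at least 2.0-fold lower. Their median log2 ratio was 0.21. These are 15.6% and 17.8% of the 45 genes, beside 18.5% and 13.2% over all genes. The lower genes numbered 4 and the higher ones 8 with the trimmed mean ratio, so which of the directions held more genes depends on the setting. Of the other 9 salvage genes, 7 of the 8 above 0 in both libraries had a ratio above 1, but only Nt5e reached 2.0. Nt5e, the ectoenzyme CD73, had 0.0959 FPKM at D0, from about 8 fragments, whereas it had 1.98 at D7, for a ratio of 20.7 (10.0 to 47.8). Nmnat1, which makes NAD in the nucleus from the product of NAMPT, had 4.39 FPKM at D0 and 8.58 at D7 without reaching 2.0, and Nmrk2, a nicotinamide riboside kinase known from muscle, was listed at 0 in both libraries. Nampt was thus the salvage gene with the largest difference in FPKM. The 9 genes of NAD synthesis from tryptophan were scarce in both libraries, with a summed level of 2.07 FPKM at D0 and 2.22 at D7. Of these, 3 were listed at 0 in both libraries (Tdo2, Kmo and Haao), and a single one, Afmid, reached 1 FPKM.

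Among the genes of NADP and NAD transport, Slc25a51, the carrier that brings NAD into mitochondria, had 18.3 FPKM at D0 and 49.1 at D7, so that the ratio was 2.68 (2.53 to 2.84). Nadkd1, the mitochondrial NAD kinase now named Nadk2, had a ratio of 2.28 (1.95 to 2.66). The mitochondrial transhydrogenase Nnt had 22.9 FPKM at D0 and 10.3 at D7, so that the ratio was 0.452 (0.411 to 0.495). The labels give the strain as C57BL/6 and the study's methods as C57BL/6J, a substrain known for a deletion within Nnt, and a single value per gene does not show which exons were read. The low-level Slc12a8 was the other gene of this list below 0.5, at 0.498, with an interval of 0.222 to 1.04 that includes 1.

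Of 17 other NAD consumers, 2 were higher, 1 was lower and 14 lay between. These are 11.8% higher and 5.88% lower, beside 18.5% and 13.2% over all genes. One of the higher genes was Bst1, an ectoenzyme related to CD38, which stayed under 1 FPKM in both libraries, at 0.130 and 0.940. Parp16, an enzyme of the endoplasmic reticulum, had a ratio of 4.71 (3.48 to 6.43) and Parp8 of 0.370 (0.317 to 0.433). Parp1, the main poly-ADP-ribosylating enzyme of DNA repair and a large consumer of nuclear NAD, had 16.0 FPKM at D0 and 19.2 at D7, so that the ratio was 1.20. The ectoenzyme Cd38 had 4.18 FPKM in both libraries.

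Nnmt uses S-adenosylmethionine, so the genes of this cycle and of the polyamines made from it were counted with it. Of the other 11 genes of this list that were above 0 in both libraries, 2 were higher and 4 were lower. These are 18.2% and 36.4%, beside 18.5% and 13.2% over all genes. The 3 polyamine enzymes Odc1, Srm and Sms lay just below 0.5, with ratios of 0.492, 0.492 and 0.490. Odc1 and Srm are abundant, with 66.6 and 67.1 FPKM at D0 and 32.8 and 33.0 at D7. Their calls sit at the threshold, and all 3 were lost with the trimmed mean ratio. Amd1, which makes the other polyamine precursor, was at 10.6 FPKM at D0 and 0.0278 at D7, but its near-identical copy Amd2 was at 10.7 and 17.7, so the division of reads between them is uncertain. Summed, Amd1 and Amd2 had a ratio of 0.832. On the higher side were Ahcyl2, a relative of S-adenosylhomocysteine hydrolase, with a ratio of 8.08, and Aox1, an oxidase of methylated nicotinamide, with 1.96 FPKM at D0 and 13.8 at D7, so that the ratio was 7.04 (6.01 to 8.30).

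**Figure D4:**
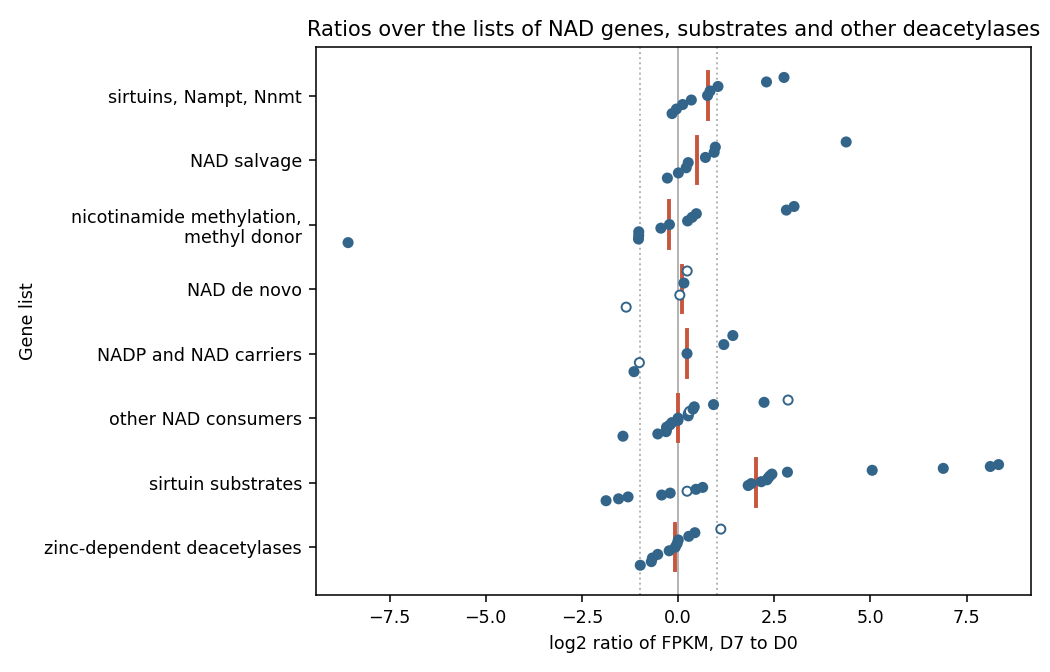
The log2 ratio of FPKM at D7 to D0 for every gene above 0 in both libraries, by list, with the 9 genes in the top row and left out of the others; open points did not reach 1 FPKM in either library, red bars are medians and dotted lines mark 2.0-fold. Sirtuin substrates reach from -1.87 to 8.33, while the zinc-dependent deacetylases have ratios from 0.506 to 2.16, or a median log2 ratio of -0.07.

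The transcripts of known sirtuin substrates were counted as well. Of 20 genes, 12 were at least 2.0-fold higher at D7, 3 were lower and 5 lay between, and the median log2 ratio was 2.03, beside 18.5% higher and 13.2% lower over all genes. The lower genes were abundant at D0: Tuba1a, an α-tubulin, had a ratio of 0.273, Hif1a, a hypoxia-responsive transcription factor, of 0.342, and Trp53, the p53 tumour suppressor, of 0.406. Some of the large ratios rest on very few fragments at D0. Acss1, the mitochondrial acetyl-CoA synthetase that SIRT3 deacetylates, had about 1 fragment at D0 and 276 at D7 (95% interval of the ratio 57.7 to 12845). Ppargc1a, the coactivator PGC-1α and a substrate of SIRT1, had 0.0370 FPKM at D0, on about 5 fragments, whereas it had 4.41 at D7. Acss2, the cytosolic acetyl-CoA synthetase, had 13.2 FPKM at D0 and 437 at D7, so that the ratio was 33.1. The fatty acid dehydrogenase Acadl had a ratio of 7.17 and the malonyl-CoA decarboxylase Mlycd, a SIRT4 partner, of 5.43. The 11 deacetylases that use zinc in place of NAD served as a comparison. Of these 1 was higher, Hdac9, at a level under 0.5 FPKM in both libraries, and none was lower, with a median log2 ratio of -0.07. With 7 sirtuins and 11 zinc-dependent enzymes in 2 libraries, whether the families differ was not tested.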

How the data were processed

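RNA-Seq values of 1 library at D0 and 1 at D7 were used. The authors filtered the reads, removed duplicates and rRNA reads, aligned the rest to mm10 and gene sequences with SOAP2 (the labels name Bowtie2) and deposited the result as FPKM, with a single value for a gene in each library. The study's methods name GeneSpring in the sentence on FPKM and the extraction of changed genes, without giving its scaling. Of 27324 rows, 3963 carried no value. Ratios of deposited FPKM were taken without pseudocount or rescaling, and a gene was called at 2.0 or 0.5. The 2.0-fold threshold is that of the paper, but the calling here need not follow its scaling. Where a library is at 0, no ratio was given.

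Fragments were recovered from 605 single-exon genes of at least 600 bp (GENCODE M21): with 176 bp (D0) and 180 bp (D7) taken from each length, all 81 and 89 values of up to 20 fragments were within 0.1 of a whole number. In genes with several exons the number of fragments is approximate, since it rests on the length of the named transcript. Intervals are exact Clopper-Pearson (ratios) and Poisson (levels) intervals at 95%. The scripts were tested on simulated data.

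All 9 genes are named. From each list, genes past 2.0-fold with an FPKM of at least 1 in a library are named, up to 6 by size, of which 1 is not reported here; Nmnat1, Bst1, Tuba1a, Hif1a, Trp53, Slc12a8, Kynu, Gnmt, Nmrk2, Afmid, Tdo2, Kmo, Haao, Parp1, Cd38, Hdac9, Amd2 and the overlapping genes were named after their values were seen. The genes and lists were chosen with earlier results of these data known. The alternatives were pseudocounts of 0.1 and 1, TPM, median centring, upper quartile, a trimmed mean ratio, filters at an FPKM of 1 and at 10 fragments, summing of rows of 1 symbol, and thresholds of 1.5 and 4.0. Division of each library by its median, after values under 0.01 were set to 0.01, was added after seeing the data. Computation used scipy 1.17.1, pandas 2.3.3 and numpy 2.4.6 under Python 3.11.15, with figures drawn in matplotlib 3.10.9.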

Additional observations from a re-analysis of the deposited data

How the results depend on the processing

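Nampt, Sirt1, Sirt3, Sirt4 and Sirt5 had a ratio above 1 under every alternative tried, with ratios from 5.28 to 6.93 for Nampt and from 3.85 to 5.06 for Sirt3. Division of each library by its median (values under 0.01 set to 0.01), chosen after seeing the data, moved the ratios of all genes above that floor by -0.35 on the log2 scale. It turned the log2 ratio of Nnmt to -0.0083 and that of Sirt7 to -0.23, and it gave 2836 higher and 3832 lower genes in all, so that 42.5% of the called genes were higher and not 58.3%. With FPKM as deposited, 2767 genes were higher and 1980 lower. The setting with the floor counted 16671 genes, including those at 0 in 1 library, against 14986 as deposited. Median centring over those 14986 genes moved the ratios by -0.015 on the log2 scale and gave 2735 higher and 2030 lower genes. How much of the difference in counts came from each step was not tested. At a threshold of 1.5, 5 of the 9 members and 11 of the 45 other NAD genes were higher. Over all 14986 genes, 4148 were higher and 3538 lower at that threshold. A threshold of 4.0 gave 1211 higher and 578 lower genes in all and 1 lower gene of the NAD lists. With 1 added to each FPKM there were 1533 higher and 1021 lower genes, and with a filter at an FPKM of 1 there were 1268 and 1062. A minimum of 10 fragments left 1827 higher genes. Lower genes of the NAD lists numbered 5 with a pseudocount of 0.1 or 1 or with the filter at an FPKM of 1, and 4 with the trimmed mean ratio. Lengths of the longest coding transcripts left every interval on its side of 1. No replicate could be left out, and no paired analysis was possible because each stage has 1 library. Depth limits the genes with few fragments at D0, such as Nt5e and Acss1.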

Other observations

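Gnmt, the glycine methyltransferase of liver that also consumes S-adenosylmethionine, was listed at 0 at D0 and had about 7 fragments at D7. Kynu, an enzyme of the tryptophan route, had about 3 fragments at D0 and 1 at D7, so no difference was detectable at this depth. The counting interval of the Bst1 ratio ran from 3.46 to 20.3 on about 7 and 46 fragments.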
